A study of Mus musculus with 8 samples.

Results

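Myosin V motors and the effectors that tie secretory vesicles to them were followed in the fourth-ventricle choroid plexus, the hindbrain tissue that secretes cerebrospinal fluid. The genes were the 3 myosin V heavy chains (Myo5a, Myo5b, Myo5c), the Rab27 effectors Myrip, Mlph and Exph5, and the synaptotagmin-like genes Sytl1, Sytl2, Sytl4 and Sytl5. Every probe set whose only gene symbol in the array annotation was one of these 10 names was taken and read by itself, which gave 16 of 45037 probe sets and covered 9 genes. Sytl5 had no such probe set and was not analysed here. Myo5a and Myo5b had 3 probe sets each, Myo5c, Mlph and Sytl4 had 2, and the other genes had 1.

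The samples were mouse tissue at embryonic day 13 on a mixed strain background, untreated per the labels, with the sex not determined. There were 4 arrays labelled Otx2 k.o., from a published Otx2-deficient strain, and 4 labelled wildtype from the same litters, each labelled as a biological replicate. Otx2 is a homeobox gene whose protein acts in the forebrain, midbrain and choroid plexus. The sources used here do not give the allele, any Cre driver, any inducing agent or the number of embryos per sample. Otx2 itself read 12.44 ± 0.04 log2 units on the knockout-labelled arrays and 11.97 ± 0.09 on the wildtype arrays (SD, n = 4 each), a rise of 0.47 (limma, adjusted p = 0.00134). Whether its probes lie within the deletion is unknown here, so it cannot serve as a check of the labels, and the arrays are called knockout-labelled throughout.

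Class V myosins are actin motors that carry or tether vesicles in the cell cortex. Rab GTPases on the vesicle membrane recruit effectors, which hold the motor: in mouse melanocytes Rab27a, melanophilin (Mlph) and myosin Va form such a chain on the melanosome. Synaptotagmin-like proteins share the Rab27-binding end of melanophilin and Myrip but carry paired C2 domains that meet the plasma membrane in place of a motor-binding part. In polarised epithelia myosin Vb works with Rab11 in apical recycling, and loss of human MYO5B causes microvillus inclusion disease.

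Values are the authors' log2 expression levels, in which a difference of 1 means a level changed by a factor of 2. A probe set passed when its adjusted p in a limma fit over all 45037 probe sets was under 0.05. Of the 16 member probe sets, 6 passed, 4 lower and 2 higher on the knockout-labelled arrays, against 12.7% of all probe sets (7.46% lower and 5.27% higher). The genes were chosen by values of this same comparison: Myrip and Myo5b were already known to be among its strongest falls. Passing is therefore given as a description, with no p for a member, and nothing is read from the count. The 2 that were higher became 1 when any knockout-labelled array but replicate 2, or replicate 3 or 4 of the wildtype, was left out, and 3 when knockout-labelled replicate 2 was. The median difference over the 16 probe sets was 0.11 log2 units, beside 0.01 over all probe sets. The groups of arrays did not overlap in 4 members that were lower (10.8% of all probe sets) and 3 that were higher (8.04%).

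The proximal promoters of 3 members that passed are shown, 2 of them lower and 1 higher on the knockout-labelled arrays. They are the 250 bases before the start in RefSeq's promoter table (build GRCm38.p6), 5′ to 3′ on the gene's strand as the table gives it. Myrip (chr9:120303823-120304072, plus strand) and Myo5c (chr9:75231764-75232013, plus strand) were lower, and Sytl4 (chrX:133981813-133982062, minus strand) was higher. The table's start lay inside the annotated span of the gene in all 3. Myo5b and Sytl2 also passed but had no window in that table, so they are not shown. Capitals mark CCAAT or its reverse complement ATTGG.
Myrip: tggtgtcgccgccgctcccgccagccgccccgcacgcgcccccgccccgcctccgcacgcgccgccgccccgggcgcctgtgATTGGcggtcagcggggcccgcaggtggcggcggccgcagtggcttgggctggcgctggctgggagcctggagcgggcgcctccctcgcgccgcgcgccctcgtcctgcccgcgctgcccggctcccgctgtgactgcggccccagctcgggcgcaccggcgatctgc
Myo5c: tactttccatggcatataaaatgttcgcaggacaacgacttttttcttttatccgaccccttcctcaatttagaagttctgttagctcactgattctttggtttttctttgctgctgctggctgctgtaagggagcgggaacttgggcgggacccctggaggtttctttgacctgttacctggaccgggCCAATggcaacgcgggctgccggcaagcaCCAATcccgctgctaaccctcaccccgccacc
Sytl4: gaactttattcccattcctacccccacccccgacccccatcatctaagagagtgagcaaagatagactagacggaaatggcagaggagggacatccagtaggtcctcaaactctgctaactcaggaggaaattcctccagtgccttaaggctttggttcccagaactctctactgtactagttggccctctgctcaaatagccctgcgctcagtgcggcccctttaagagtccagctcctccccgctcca
TAATCC, a core sequence that Otx2 binds, and CCAAT, the box bound by the factor NF-Y, were searched on both strands. TAATCC was in 0 of the 8 member windows in the table and in 6.25% of all 32851 windows of the same length. CCAAT was in 3 of the 8, those of Myo5c (2 matches), Myrip and Exph5, and in 33.8% of all windows. The Myrip window was 82.4% G and C, that of Myo5c 52.8% and that of Sytl4 53.2%, beside a median of 52.4% over all windows. A match describes the letters of these windows only.

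Myrip was the member with the largest difference. Its protein, also called Slac2-c, links Rab27a to the motors myosin VIIa and myosin Va and is known from melanosomes of the retinal pigment epithelium and from secretory granules. Its only probe set read 8.85, 8.48, 8.47 and 8.67 log2 units on wildtype arrays 1 to 4. The knockout-labelled arrays read 6.14, 5.80, 6.67 and 6.29. All 4 lay under every wildtype array, and replicate 3 was the highest of them. The means were 6.22 ± 0.36 and 8.62 ± 0.18 (SD, n = 4 each), a difference of -2.39 (SE 0.17), so that the knockout-labelled level was 5.26-fold lower. Between arrays of the same replicate number the difference ran from -2.71 to -1.81, and it was smallest for number 3.

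Myo5b, the apical recycling motor, was lower by nearly as much on its brightest probe set. That probe set read 8.54, 8.50, 8.36 and 8.70 on the wildtype arrays. On the knockout-labelled arrays it read 5.89, 6.52, 6.45 and 6.30. The groups stood apart, and knockout-labelled replicate 1 was the lowest array. The means were 8.52 ± 0.14 and 6.29 ± 0.28, a difference of -2.24 (SE 0.14), or 4.71-fold.

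A second Myo5b probe set went the same way with a smaller difference. It read 6.91, 6.91, 6.82 and 6.93 on the wildtype arrays and 5.28, 5.54, 5.30 and 5.16 on the knockout-labelled arrays. No array of one group came within 1 log2 unit of the other group, and the difference was -1.57 (SE 0.08), or 2.97-fold. The dimmest Myo5b probe set overlapped between the groups and did not pass. Its wildtype arrays read 4.67, 5.04, 5.13 and 5.20 against 4.67, 4.74, 4.78 and 4.58, a difference of -0.32 (SE 0.11). Wildtype replicate 1 alone lay among the knockout-labelled arrays there, and without it the difference was -0.43 and passed.

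**Figure D1:**
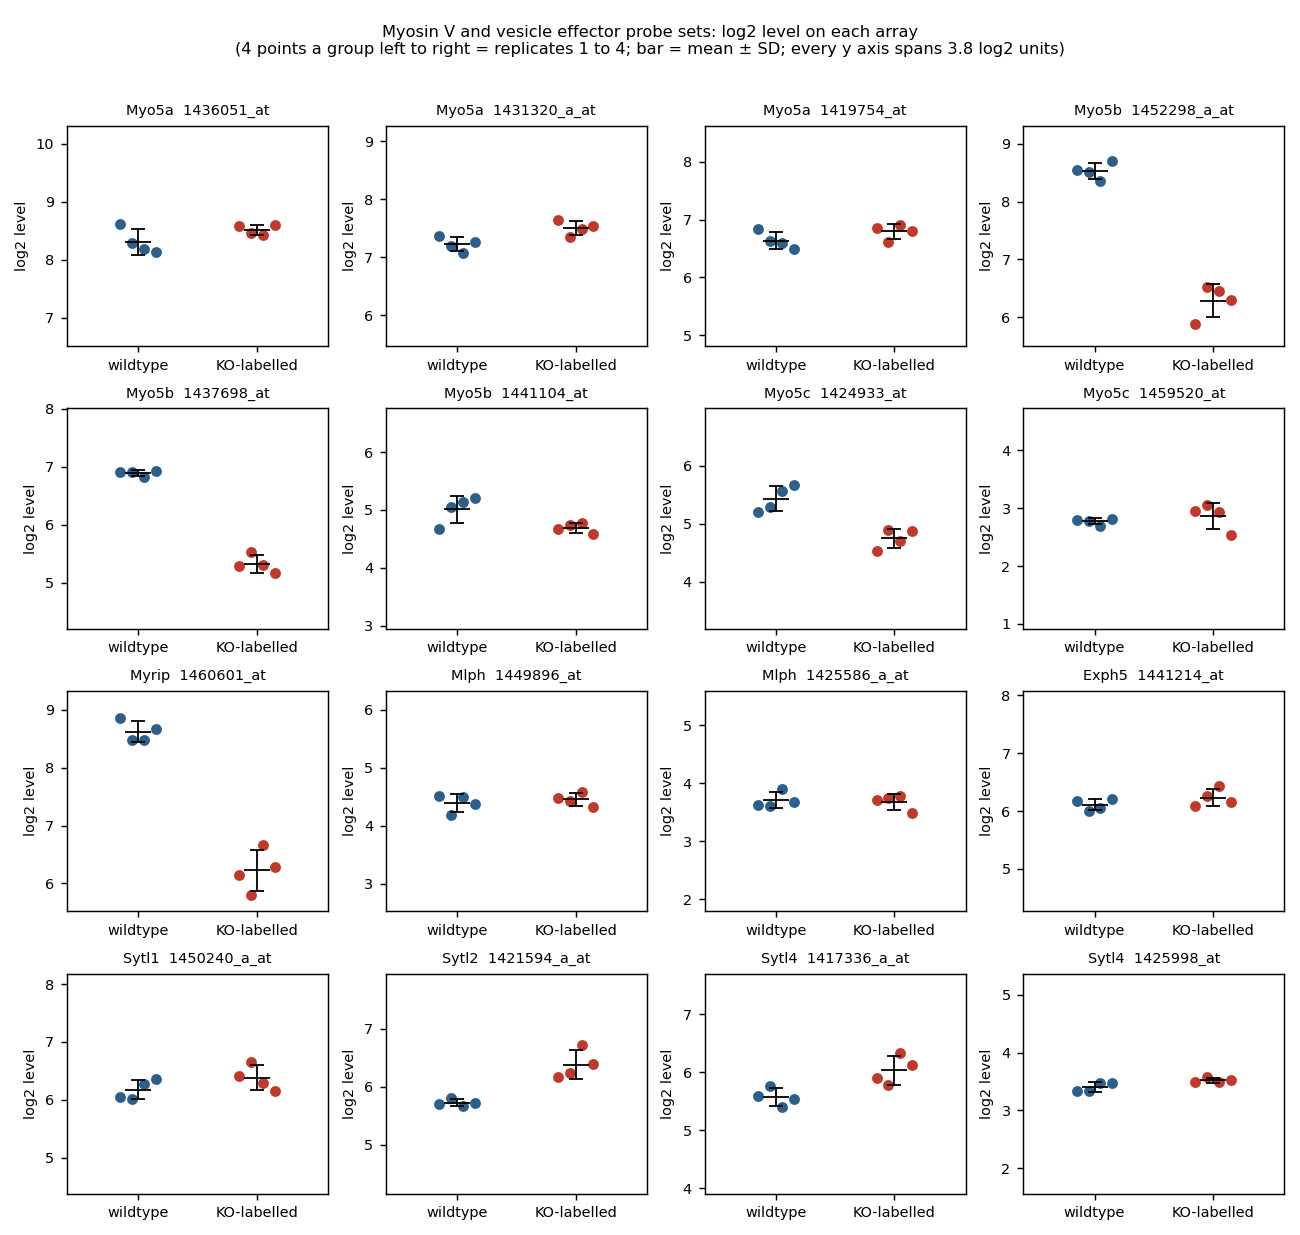
Log2 level of each of the 16 probe sets on every array, with the 4 wildtype arrays on the left and the 4 knockout-labelled arrays on the right of each panel, and bars for the mean ± SD. Myrip and the 2 brighter Myo5b probe sets separate the groups by more than 1 log2 unit, while the Myo5a, Mlph, Exph5 and Sytl1 panels overlap.

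Of the other 2 class V motors, Myo5c was lower and Myo5a did not pass. Myo5c, a motor of exocrine and other glandular epithelia, was lower on the brighter of its 2 probe sets. There the wildtype arrays read 5.20, 5.30, 5.57 and 5.67 and the knockout-labelled arrays 4.54, 4.89, 4.70 and 4.87. The groups did not overlap, and the difference was -0.68 (SE 0.12), or 1.61-fold. The other Myo5c probe set read 2.80, 2.78, 2.70 and 2.81 on the wildtype and 2.96, 3.05, 2.93 and 2.54 on the knockout-labelled arrays. It lay at a mean of 2.82, above only 4.47% of all probe sets, and its difference was 0.10 (SE 0.11).

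Myo5a, the motor of melanosomes and of neuronal vesicles, lies next to Myo5c on chromosome 9 in the reference gene order. Its 3 probe sets all read slightly higher on the knockout-labelled arrays, and none passed. The one of middle level had knockout-labelled values of 7.65, 7.34, 7.49 and 7.54 against wildtype values of 7.37, 7.20, 7.08 and 7.26. Only knockout-labelled replicate 2 and wildtype replicate 1 overlapped there, and the difference was 0.28 (SE 0.09). It passed with the replicate number as a block (SE 0.07), with array weights, with quantile normalization, among probe sets above the median level and without knockout-labelled replicate 2. The brightest read 8.58, 8.46, 8.43 and 8.60 against wildtype values of 8.62, 8.28, 8.18 and 8.13, a difference of 0.21 (SE 0.11). The dimmest read 6.86, 6.62, 6.91 and 6.80 against 6.84, 6.62, 6.59 and 6.49, a difference of 0.16 (SE 0.09). Wildtype replicate 1 was the highest array of its group on all 3 probe sets, and without it the brightest differed by 0.32 and passed.

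**Figure D2:**
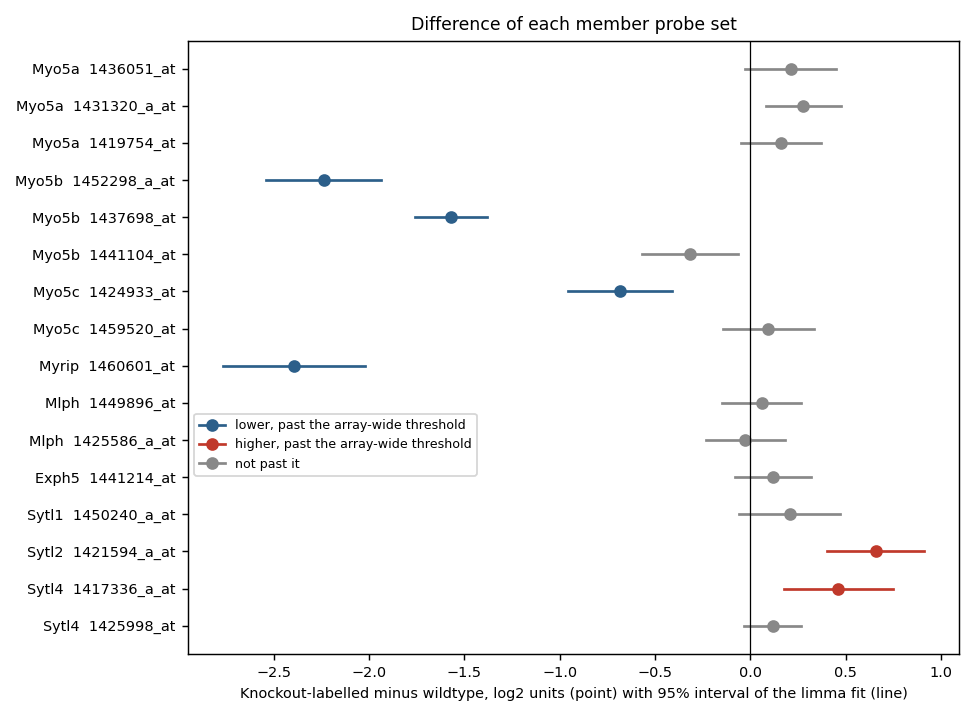
Knockout-labelled minus wildtype difference in log2 units for each member probe set, with the 95% interval of the limma fit. Myrip and 2 Myo5b probe sets lie below -1.5, the brighter Myo5c probe set at -0.68, and Sytl2 and the brighter Sytl4 probe set above 0.4. The dimmer Myo5c and Sytl4 probe sets lie at 0.10 and 0.12.

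Of the other effectors that bind Rab27, neither Mlph nor Exph5 passed. Mlph, the melanosome adaptor of myosin Va, was dim on both probe sets. The brighter one read 4.51, 4.18, 4.51 and 4.38 on wildtype arrays and 4.49, 4.43, 4.59 and 4.32 on knockout-labelled arrays, and the values were interleaved. Its difference was 0.06 (95% interval -0.15 to 0.27). The dimmer one read 3.63, 3.61, 3.91 and 3.68 on wildtype and 3.70, 3.75, 3.79 and 3.48 on knockout-labelled arrays, a difference of -0.03 (95% interval -0.23 to 0.18). The sign of both turned without single arrays. Exph5, a Rab27 effector whose loss in humans gives fragile skin, had wildtype values of 6.18, 6.01, 6.06 and 6.20 and knockout-labelled values of 6.09, 6.27, 6.43 and 6.15. They overlapped, with a difference of 0.12 (95% interval -0.08 to 0.32). The lowest bound among these 3 intervals was -0.23, beside an interval of -2.77 to -2.02 for Myrip. Myrip was chosen with its fall in this comparison known. No test of the contrast between genes was made, and nothing is read from it.

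All 4 probe sets of the synaptotagmin-like genes had positive differences, and 2 of them passed. Sytl2, which docks Rab27 vesicles at the plasma membrane of several secretory epithelia and of melanocytes, read 5.71, 5.81, 5.66 and 5.72 on the wildtype arrays. The knockout-labelled arrays read 6.17, 6.24, 6.73 and 6.39, each above every wildtype array, with replicate 3 the highest. The difference was 0.66 (SE 0.11), or 1.58-fold.

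Sytl4, also called granuphilin and known for docking insulin granules, passed on its brighter probe set by a narrow margin. The wildtype arrays read 5.59, 5.77, 5.39 and 5.54 and the knockout-labelled arrays 5.89, 5.77, 6.34 and 6.13. Knockout-labelled replicate 2 and wildtype replicate 2 were nearly equal, so the groups only just failed to overlap. The difference was 0.46 (SE 0.13), or 1.38-fold, and it did not pass with the replicate number as a block (SE 0.15). Left without any single array other than replicate 2 of either group, it did not pass either, with differences of 0.36 to 0.51. Within replicate numbers it ran from 0.01 for number 2 to 0.94 for number 3. The dim Sytl4 probe set read 3.33, 3.33, 3.47 and 3.48 on wildtype and 3.49, 3.58, 3.49 and 3.52 on knockout-labelled arrays. Its groups did not overlap either, but the difference of 0.12 (SE 0.07) did not pass.

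Sytl1, a Rab27 effector of lymphocyte and neutrophil granules, did not pass. Its wildtype arrays read 6.05, 6.02, 6.28 and 6.35 and its knockout-labelled arrays 6.42, 6.66, 6.30 and 6.16. The groups overlapped, and the difference was 0.21 (SE 0.12). Between arrays of the same number it ran from -0.19 to 0.64.

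**Figure D3:**
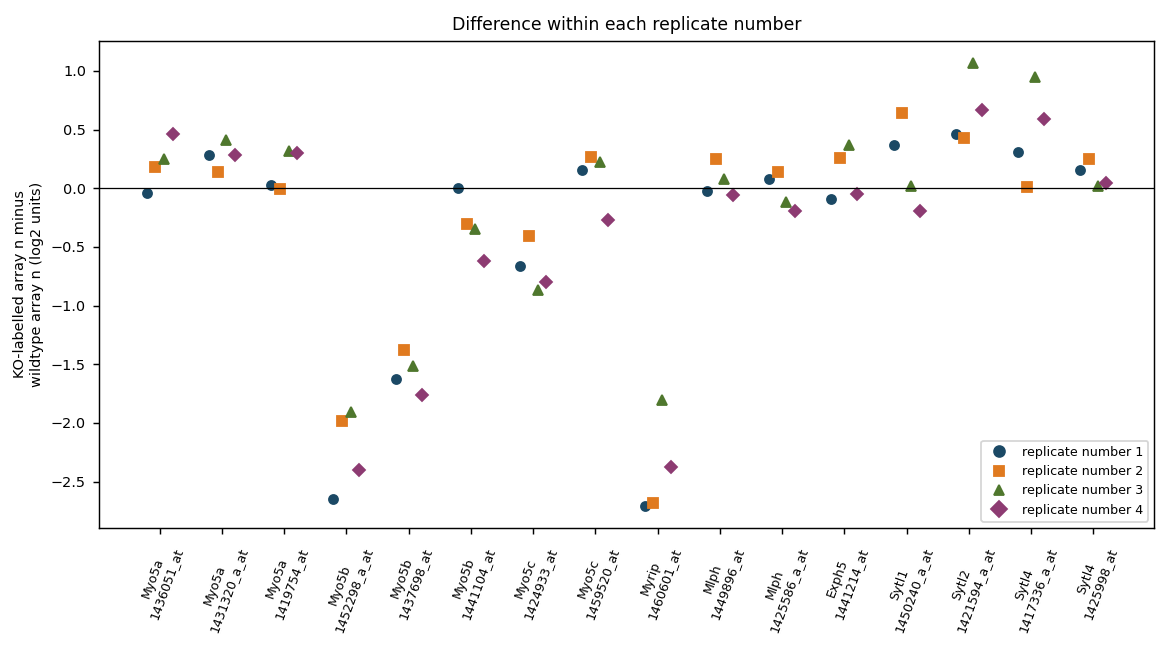
Difference between the knockout-labelled and the wildtype array of the same replicate number, in log2 units, for each member probe set, with 1 marker for each of the 4 numbers. Myrip and the 2 brighter Myo5b probe sets lie between -2.71 and -1.38 in every number, while the brighter Sytl4 probe set runs from 0.01 to 0.94.

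Some lists of cell type markers also differed between the groups, and others mostly did not pass. Of 12 markers of the choroid plexus epithelium 11 fell and 0 rose, with a median difference of -0.97, and their mean level was 10.17 to 10.49 on the knockout-labelled arrays against 11.30 to 11.48 on the wildtype arrays. Of 10 markers of multiciliated cells 9 fell, with a mean level of 7.85 to 8.20 against 9.03 to 9.15. All 9 stroma markers rose (11.36 to 11.72 against 10.90 to 10.97), as did 7 of 9 macrophage markers (9.13 to 9.63 against 8.49 to 8.72). Of the other lists, 2 of 8 endothelial, 1 of 6 erythroid and 2 of 9 pigment cell markers fell, the last pair being Mitf and Oca2, and none of 10 neuronal or of 10 mast cell and lymphocyte markers passed. With the replicate number as a block 8 of the 9 stroma markers rose, since Pdgfrb did not pass, 2 erythroid markers fell and the pigment cell marker Dct rose. The pigment cell genes Tyr, Mlana and Gpr143 lay below 4.34, the lower quartile of levels on the array. The part of cell composition in the members' differences was not tested, and in whole tissue fewer cells of a type and less RNA per cell cannot be told apart. The medians of the epithelial and ciliated markers, -0.97 and -1.0, stand beside -2.39 for Myrip, -2.24 for Myo5b and -0.68 for Myo5c.

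**Figure D4:**
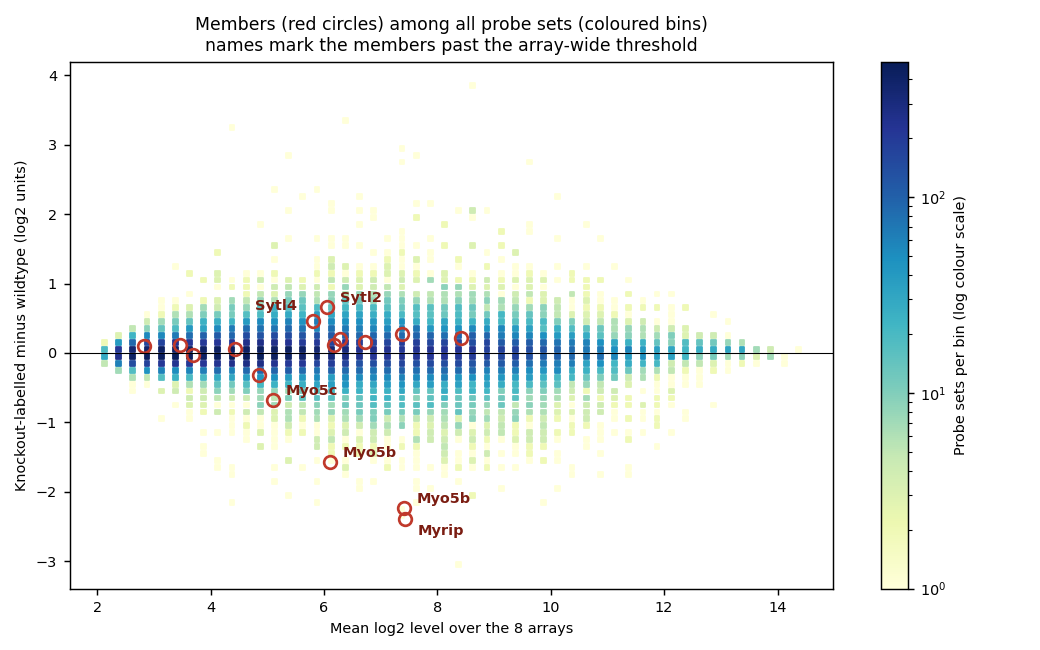
Knockout-labelled minus wildtype difference against the mean log2 level over the 8 arrays, for all 45037 probe sets as coloured bins and for the 16 members as red circles. Myrip and the brightest Myo5b probe set lie at a middle level, 7.42 and 7.41, near the lower edge of the cloud, and most other members lie inside it.

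The genes whose profile over the 8 arrays lay closest to Myrip, among 16305 named genes and by the Euclidean distance between profiles centred on their own means, were Slc22a19 (distance 0.62 log2 units), Emb (0.91), Col8a1 (0.93), Dlgap1 (0.93) and Nqo1 (1.02). For Myo5b they were Emb (0.58), Slc22a19 (0.65), Pde6c (0.67), Nqo1 (0.70) and Deup1 (0.71), the last also in the list of multiciliated markers. Slc22a19, an organic anion transporter, Emb, a partner protein of monocarboxylate transporters, and Nqo1, a quinone reductase, were near both. Their differences were -2.16, -2.03 and -1.87. The distance follows the size of the group difference, so it describes likeness over these arrays only.

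The Rab GTPases that these proteins bind were set beside them, with each gene read by its brightest probe set. Of 15 Rab genes of secretory and recycling vesicles 2 rose and 0 fell, with a median of 0.07, where 6.31% of 18193 genes rose and 10.2% fell (median 0.00 over these genes). Rab38, a relative of Rab32, had a difference of -0.29 and passed with the replicate number as a block, so that 1 then fell, as 1 also did with another variance prior, array weights, arrays centred on medians, a filter on dim probe sets, 1 probe set a gene and without wildtype replicate 1. Rab3b, a Rab of regulated exocytosis, rose from 6.50 ± 0.10 to 6.96 ± 0.11 (difference 0.46, limma adjusted p = 0.00409). Rab32, which serves melanosome-related organelles, rose by 0.43 (adjusted p = 0.0277). The Rab27 partners of Myrip did not pass on any probe set. Rab27a differed by -0.12 to -0.03 on 4 probe sets and Rab27b by -0.24 to 0.04 on 4. All had mean levels under 6. Rab27a probe sets at 2.54 and 3.95 and a Rab27b probe set at 3.24 lay under the lower quartile of levels, 4.34. Without detection calls their signal over background is unknown. The partner of Myo5b, Rab11a, was bright and differed by -0.04 and 0.01 on its 2 probe sets.

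Other Rab effectors and regulators included more that fell, 5 of 20 against 1 that rose, with a median of -0.04. Rph3al (Noc2), a Rab3 and Rab27 effector of endocrine and exocrine granules, fell from 9.18 ± 0.02 to 8.49 ± 0.14, a difference of -0.68 (SE 0.08, adjusted p = 0.000382). A dim second probe set of Rph3al differed by -0.10 and did not pass. Rab3ip (Rabin8), the exchange factor for Rab8 in apical and ciliary traffic, fell by 0.48 (adjusted p = 0.00138), and its second probe set fell by 0.61. Its relative Rab3il1 rose by 0.79 (adjusted p = 0.000819), rose on 2 further probe sets and did not pass on 3 dim ones. The Rab11 adaptors Rab11fip1, Rab11fip2 and Rab11fip4, the first pair of which can hold myosin Vb, made up the rest of those that fell, with differences of -0.55, -0.27 and -0.40. They were named after their values were seen.

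SNARE genes and their regulators, which carry out the fusion that follows docking, showed 3 that fell and 1 that rose of 22, with a median of 0.00. Stx3, the apical membrane syntaxin, read 9.70 ± 0.05 on the wildtype arrays and 8.78 ± 0.22 on the knockout-labelled arrays, with no overlap. It fell by 0.92 (SE 0.10, limma adjusted p = 0.000352), and its 3 other probe sets fell by 0.71 to 0.90. Stxbp3 fell by 0.34 (adjusted p = 0.0180) and Stxbp2, chosen after its value was seen, by 0.25 (adjusted p = 0.0346). Stx1a, the syntaxin of neurons and endocrine cells, rose by 0.61 (adjusted p = 0.000149), and its other probe set rose by 0.40. With the replicate number as a block Stxbp2 did not pass (adjusted p = 0.0671), and Vamp8, with a difference of -0.28, did.

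Of 10 exocyst subunits, the complex that tethers vesicles before fusion, 1 fell and 1 rose, with a median of -0.02. Exoc4 fell by 0.41 (adjusted p = 0.00764) on its brightest probe set and fell on all 4 of its others. Exoc6b rose by 0.26 (adjusted p = 0.0309), and a dim second probe set of it differed by -0.04. Of 19 synaptotagmins and Doc2 proteins, relatives of the Sytl genes that sense calcium or membrane lipids, 2 fell and 1 rose, with a median of 0.02. Syt9 read 9.66 ± 0.03 on the wildtype and 8.19 ± 0.23 on the knockout-labelled arrays, a fall of 1.47 (SE 0.11, adjusted p = 2.79e-05). Syt17 fell by 0.56 (adjusted p = 0.00247) and by 0.68 on its other probe set, and Syt7, a calcium sensor of lysosome and granule exocytosis, rose by 0.42 (adjusted p = 0.0384). Of its 3 other probe sets 1 rose by 0.30, and the others differed by 0.15 and 0.10 without passing.

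Of 23 other unconventional and nonmuscle myosins 5 fell and 3 rose, with a median of 0.02. Myo16 fell by 1.01 (adjusted p = 0.000141), the nonmuscle heavy chain Myh14 by 0.89 (adjusted p = 0.00195), and Myo6, the motor that moves toward the minus end of actin, by 0.62 (adjusted p = 0.00271). The second Myo6 probe set fell by 0.36, and a dim one differed by -0.18 without passing. Myo7a, the motor that Myrip joins to Rab27a in the retina, fell from 8.28 ± 0.28 to 7.55 ± 0.23 (difference -0.73, adjusted p = 0.0114). It and Myo1e, which fell by 0.45, were named after their values were seen, as were the 3 that rose, Myo1c, Myo19 and Myh10. At an adjusted p under 0.01, 4 of this list were lower and 0 higher. Of 8 myosin V light chains, adaptors and actin nucleators only Rilpl2, a myosin Va partner, passed, with a fall of 0.29 (adjusted p = 0.0379).

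**Figure D5:**
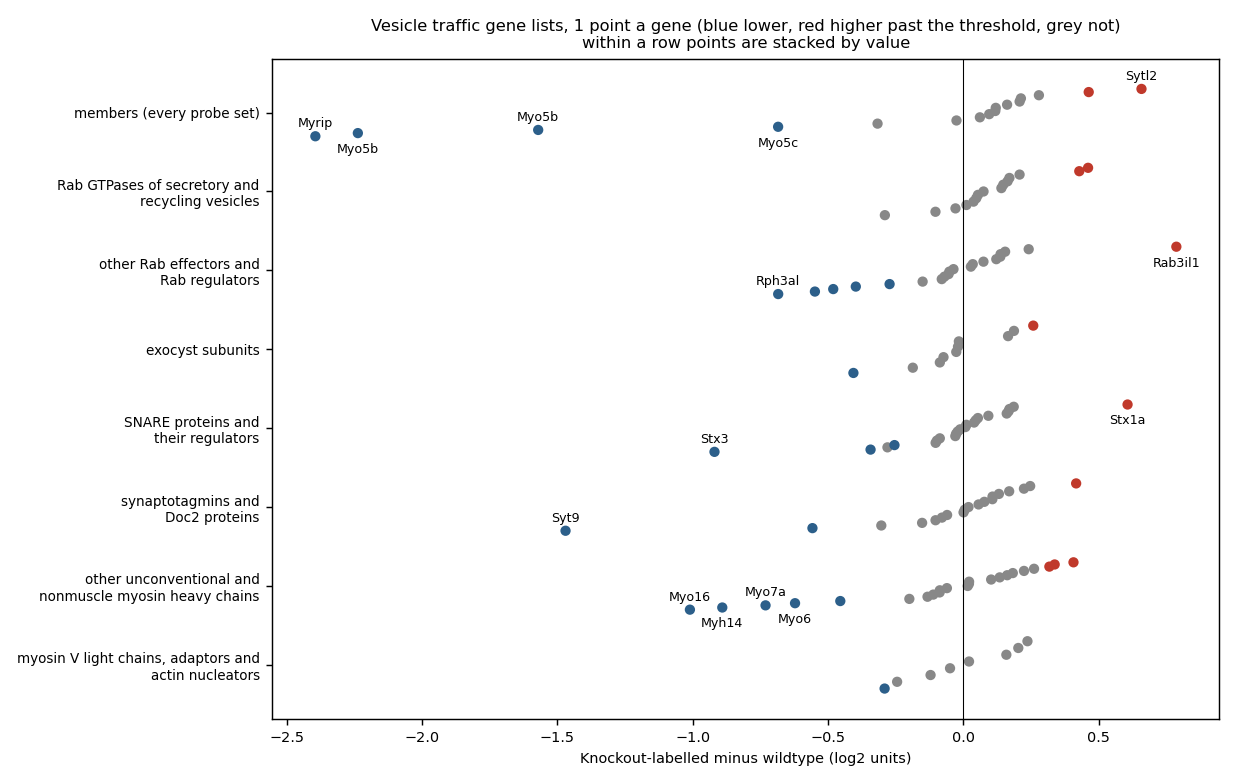
Knockout-labelled minus wildtype difference in log2 units for the members (every probe set) and for the genes of 7 vesicle traffic lists (1 brightest probe set a gene). In each list most genes lie close to 0, and Syt9 at -1.47 is the traffic gene with the largest fall.

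In all, 9 of 117 genes of these lists rose and 17 fell, or 26 that passed, and the other 91 did not. Over all 18193 genes, each by its brightest probe set, 6.31% rose and 10.2% fell. The counts of these lists are given as a description, and nothing is read from them. Among the traffic genes followed singly through these refits, those that passed by the narrowest margins lost the call without single arrays. Genes named after their values were seen, such as Stxbp2, Myo1c, Myo19 and Myh10, were not followed in this way. Syt7 (0.33 to 0.51) lost it without any array but knockout-labelled replicate 2, and also with arrays centred on their medians (0.39, limma adjusted p = 0.0555). Rab32 (0.34 to 0.52) lost it without any but knockout-labelled replicate 2 or wildtype replicate 1, and Rilpl2 (-0.32 to -0.26) without any but knockout-labelled replicate 4 or wildtype replicate 1. Exoc6b (0.22 to 0.28) lost it when knockout-labelled array 1 or 3, or any wildtype array but replicate 1, was left out. Stxbp3 (-0.39 to -0.29) lost it when knockout-labelled array 1 or wildtype array 4 was left out. The count of genes that rose was 4 when knockout-labelled array 1 or wildtype array 3 or 4 was left out, 5 without knockout-labelled array 3, 6 without knockout-labelled array 4 or wildtype array 2, and 12 without knockout-labelled array 2.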

How the data were processed

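RNA from 8 samples was read on expression arrays with biotin labelling. The authors deposited RMA values on a log2 scale, per the submitters' processing notes. RMA corrects background, equalises the distributions of all arrays and summarises the probes of a set. Its version was not stated in the sources used here. Such values cannot show a change in total RNA per cell. Detection calls were not analysed here, and the number of arrays limits the precision. Levels of different probe sets are not compared. No 2 arrays held identical values. Array medians were 5.885 to 5.898 on the knockout-labelled and 5.851 to 5.875 on the wildtype arrays, so the groups did not overlap. With arrays centred on medians 3818 probe sets passed as lower and 1920 as higher, against 3362 and 2373 without centring. The brighter Sytl4 probe set and Syt7 then did not pass.

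Of 45101 probe sets 64 controls were left out. Of the rest 34945 had 1 gene symbol in the platform annotation, 932 several and 9160 none listed. The groups were compared in R 4.3.3 by the moderated two-sided test of limma 3.58.1, with genotype as sole covariate and Benjamini-Hochberg adjustment over 45037 probe sets. Gene p-values come from that test, which was tested on simulated data, except where the replicate block is named. The members, the 7 vesicle traffic lists, the 9 marker lists and the tests were chosen with earlier results of these data known. Named were all members, up to 3 genes per traffic list with the smallest p among those past the threshold, the 5 nearest profiles for Myrip and Myo5b, Otx2, and Sytl3, whose probe sets are shared with other genes and were not used here. Rab27a, Rab27b and Rab11a were added as partners of members. Rab38, Vamp8 and the single genes named with the marker lists were outside this rule and were named for their results. Other genes outside it are marked in the text.

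Replicate numbers are shared between the groups. After subtraction of group means, arrays with one number correlated over probe sets at 0.12 to 0.28, above the limit of 0.1. Other pairs ran from -0.27 to 0.26, and for 3 of the 8 arrays the own number gave the best correlation. The main fit left the numbers out, so its differences, SEs, intervals and adjusted p are unpaired. The numbers served as pairing only in the replicate block and in differences within a number, from the values and not from a label. No label gives a batch.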

Additional observations from a re-analysis of the deposited data

How the results depend on the processing

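The 17 alternatives began with another variance prior, array weights, the replicate block, and quantile and median normalization. Further ones were a filter on dim probe sets, 1 probe set a gene and no probe sets with the suffix _s, _x or _a. The last were a stricter threshold and leaving out each of the 8 arrays. Under the alternatives that tested them, Myrip (-2.54 to -2.25), the brighter Myo5b (-2.31 to -2.10 and -1.64 to -1.52) and Myo5c (-0.76 to -0.61) probe sets and Sytl2 (0.54 to 0.73) kept direction and call. Each alternative used these same arrays, in which Myrip and Myo5b were already known as strong falls, so this is no independent support. Sytl4 (0.36 to 0.55) lost its call in 10 of 15. Myo5a (the middle probe set, 0.23 to 0.33) gained a call in 5 of 15. With the replicate block 6 members passed, Sytl4 losing and Myo5a gaining the call, and with array weights 3 were higher. Members higher numbered 1 with arrays centred on medians or at an adjusted p under 0.01. Without _s, _x and _a probe sets they numbered 0, and 3 members passed in all. That setting left out the Sytl2 probe set, the brighter Sytl4 and the brightest Myo5b probe set, so it did not test them. Without single arrays members higher numbered 1 to 3, and traffic genes higher 4 to 12. At an adjusted p under 0.01, 15 traffic genes passed, 3 of them higher. Over the whole array, probe sets higher numbered 3977 with array weights and 1346 to 3971 without single arrays. Lower and higher numbered 2131 and 1426 with 1 probe set a gene, and 1942 and 854 at an adjusted p under 0.01. Mlph turned sign without single arrays, from -0.011 to 0.11 on its brighter and -0.061 to 0.041 on its dimmer probe set (0.040 without knockout-labelled replicate 4). The cause of these changes was not tested. One probe set each of Myo5c, Mlph and Sytl4 lay under the lower quartile of levels, and without detection calls their signal over background is unknown.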
